A study of Mus musculus with 3 samples.

Results

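The axon initial segment is the stretch of axon next to the cell body where action potentials start. Its membrane proteins are held in place by ankyrins, adaptor proteins that bind ion channels and adhesion molecules at the membrane and spectrin beneath it. Spectrins are long rods built of alpha and beta chains, and with actin they form a periodic skeleton under the membrane of axons and other cells. Inside the initial segment TRIM46 lies on bundled microtubules and sets their orientation. The 8 genes described here are the 3 ankyrin genes Ank1, Ank2 and Ank3, the alpha spectrin gene Sptan1, the beta spectrin genes Sptb, Sptbn1 and Sptbn4, and Trim46. They were chosen by name, 8 of the 47593 gene rows in the files, and all 8 were found.

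RNA was sequenced from primary neurons of the hippocampus of wild-type (WT) mice, in 3 libraries that form 1 group. These cells had been given fresh medium containing B27 and penicillin-streptomycin, with 24 h named as the treatment time of the series, and had been grown in Neurobasal (10% B27, 1% GlutaMAX) under 5% CO2 and at 37 °C. Nothing read here states the animals' age, the days in culture or whether separate cultures were used, so that p-values measure only the spread between these samples and that spread may be technical. The series design also names apoE particles as a treatment, which was not analysed here, and no comparison between treatments was made.

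The deposited log2 values were turned back into reads, 18780572, 18683966 and 18885652 in replicates 1, 2 and 3, and levels are given below as CPM, reads per 1000000 recovered reads of that library, with the mean ± SD (n = 3). Absence of reads allows a level of up to 3 reads per library, or 0.159 to 0.161 CPM. Such bounds cover counting error only, since reads are not independent molecules. As a check of the neuronal label, 8 of 8 neuron markers were found at 1 CPM or more, led by Map2 (1528 ± 50.8 CPM) and Stmn2 (1025 ± 11.9), with a summed level of 5071 to 5178 CPM per library. Astrocyte markers were also present, 7 of 8 detected, summing to 1804 to 1825 CPM and led by Slc1a3 (979.6 ± 9.44) and Aldoc (223.7 ± 9.34). Of 5 markers of oligodendrocyte precursors 4 were detected (250.2 to 267.5 CPM in sum, led by Olig1 and Olig2), of 7 oligodendrocyte markers 3 (34.7 to 37.0 CPM, led by Mbp and Mog, Opalin without reads), of 9 endothelial and mural markers 3 (32.9 to 36.7 CPM, led by Acta2 and Pdgfrb, Cldn5 and Kcnj8 without reads) and of 8 microglial markers 1 (3.51 to 5.73 CPM, led by C1qa and Csf1r). Ankyrins and spectrins are made by glia too, and the part that each cell type contributed was not tested. In such bulk RNA, fewer cells of a type and less RNA per cell cannot be told apart.

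The members of each family are related in sequence, so it matters whether reads could be assigned to the wrong gene. The longest runs of identical coding bases are shown for 3 pairs of members, taken from GENCODE M21 transcripts (build GRCm38), each written 5′ to 3′ on the coding strand with 20 bases on either side. Capitals mark the run that both genes share. For Ank2 and Ank3 the run is 23 bases long, at chr3:126957290-126957352 (minus strand) and chr10:69977713-69977775 (plus strand), and 47 of the 63 printed positions are identical:
Ank2: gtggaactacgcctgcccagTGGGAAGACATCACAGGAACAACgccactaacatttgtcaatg
Ank3: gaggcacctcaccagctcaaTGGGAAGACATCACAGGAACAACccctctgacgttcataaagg
For Sptb and Sptbn1 it is 30 bases, at chr12:76601900-76601969 and chr11:30114716-30114785 (both minus strand), with 60 of 70 positions identical:
Sptb: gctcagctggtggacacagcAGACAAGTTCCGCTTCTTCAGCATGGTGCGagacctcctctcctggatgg
Sptbn1: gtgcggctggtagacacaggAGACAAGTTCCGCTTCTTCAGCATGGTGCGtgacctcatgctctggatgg
For Sptbn1 and Sptbn4 it is 27 bases, at chr11:30146750-30146816 and chr7:27418999-27419065 (both minus strand), with 55 of 67 positions identical:
Sptbn1: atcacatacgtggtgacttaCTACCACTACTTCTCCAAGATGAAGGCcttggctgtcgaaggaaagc
Sptbn4: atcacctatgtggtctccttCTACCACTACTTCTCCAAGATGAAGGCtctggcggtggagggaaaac

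The shared runs were 19 bases for Ank1 and Ank3 and 22 for Ank1 and Ank2, and 15 to 17 between Sptan1 and each beta spectrin gene. No window of 50 coding bases was shared between members of either family. Whole coding transcripts were also compared, as 50-base windows, with the transcripts of every other gene on either strand, and no window of Ank3, Sptan1 or Sptb recurred there. For the other members 0.154% (Ank2), 0.742% (Sptbn1), 2.54% (Sptbn4), 5.07% (Trim46) and 6.44% (Ank1) of windows did, mainly in genes that overlap the same locus. The sources used here do not give the read length. For Trim46 the overlapping gene is Krtcap2, which lies on the opposite strand, shares 239 exonic bases with it and had 4797 reads over the 3 libraries. Nor do they say whether the counting used strand, and without strand the reads in that stretch cannot be assigned to either gene. Antisense partners of Ank1 (Gm15816, 862 shared exonic bases) and Sptbn1 (Gm29237, 134 bases) had 18 and 74 reads. Sptbn4 shares 134 exonic bases with Gm20479 on the same strand, which had 0 reads, and 243 with the antisense gene Gm44924, which has no count here. These counts do not tell how many reads of the members fell in the shared stretches and could not be assigned.

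All 8 members were detected at 1 CPM or more in every library, against 29.4% of all gene rows (28.7% when recovered reads were used). Together they took 0.328%, 0.327% and 0.332% of summed expression in replicates 1, 2 and 3 by the deposited values, and 0.328%, 0.326% and 0.334% of the recovered reads. Sptan1 made up 42.1% ± 0.166 of the members' reads and Sptbn1 24.6% ± 0.131, whereas Ank1 and Sptbn4 contributed 1.24% ± 0.0196 and 1.34% ± 0.0725.

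**Figure D1:**
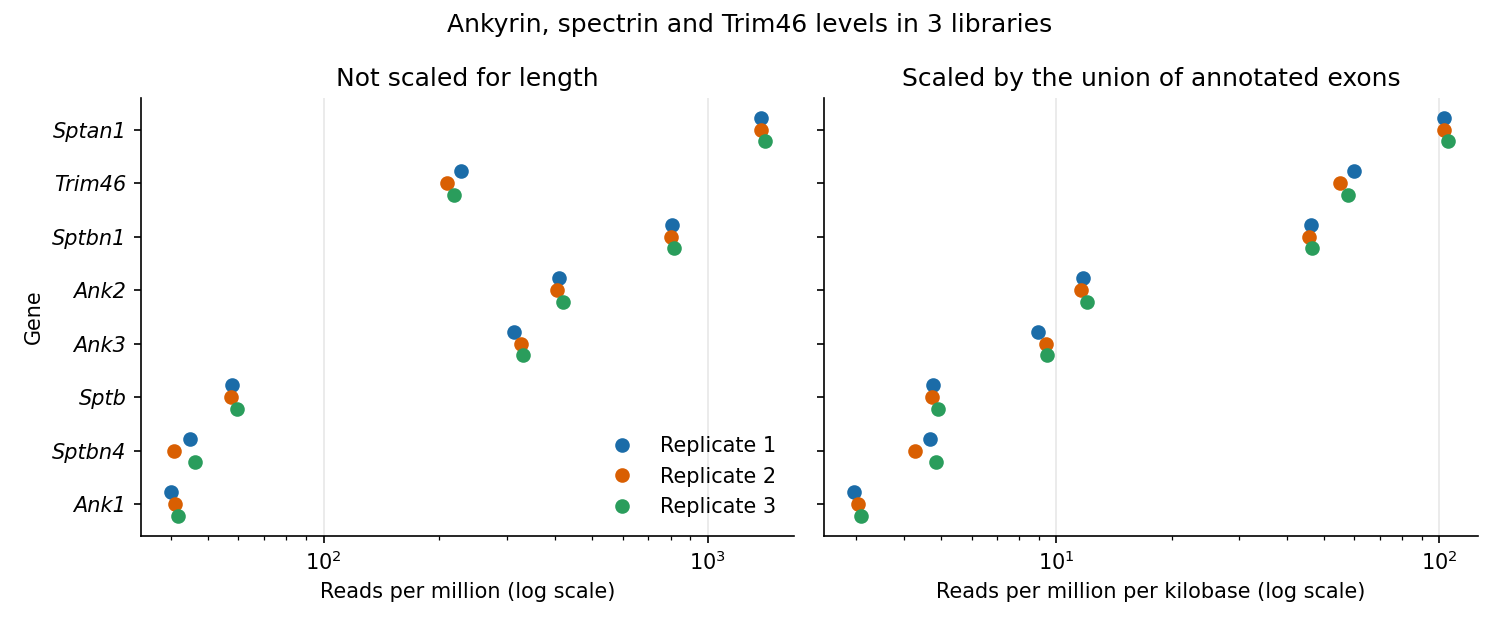
Levels of the 8 genes in each library, on log axes, in CPM (left) and in CPM per kilobase of annotated exon (right). Each point is 1 library, coloured by replicate. Libraries lie close together against the distances between genes, and Trim46, the shortest gene, moves up from 218.5 CPM, below Ank3, to 57.6 per kilobase, above Sptbn1.

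Ankyrin-B, the product of Ank2, lines the axon beyond the initial segment and serves axonal transport. Ank2 (chromosome 3, 126921612 to 127499350 in GRCm38, minus strand) had 7715, 7566 and 7937 reads, or 410.8, 405 and 420.3 CPM. The level was highest in replicate 3, and the libraries differed 1.04-fold from lowest to highest.

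Ankyrin-G, encoded by Ank3, is the master organiser of the initial segment, without which the segment does not form. Ank3 (chromosome 10, 69398773 to 70027438, plus strand) had 5865, 6101 and 6227 reads, or 312.3, 326.5 and 329.7 CPM. Replicate 1 was the lowest, and replicates 2 and 3 lay close together. With gene spans of 628666 bases for Ank3 and 577739 for Ank2, these loci were longer than 99.1% and 99% of 15596 protein-coding genes with reads.

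Ankyrin-R, encoded by Ank1, is best known from red blood cells but is also found in subsets of neurons. Ank1 (chromosome 8, 22974844 to 23150497, plus strand) had 751, 766 and 789 reads, or 40.0, 41.0 and 41.8 CPM, and was the least abundant ankyrin in every library. Of the reads of the 3 ankyrin genes, Ank2 took 53.1% ± 0.707, Ank3 41.6% ± 0.673 and Ank1 5.28% ± 0.0335.

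Alpha-II spectrin, the product of Sptan1, is the alpha chain that neuronal beta spectrins pair with. Sptan1 (chromosome 2, 29965560 to 30031451, plus strand) was the highest member, with 25804, 25756 and 26562 reads, or 1374, 1379 and 1407 CPM, and ranked 24th by CPM among 13836 detected genes with a known length. Replicates 1 and 2 were nearly equal and replicate 3 was the highest.

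Beta-II spectrin, encoded by Sptbn1, is the beta chain of the periodic skeleton along the axon shaft. Sptbn1 (chromosome 11, 30099395 to 30268175, minus strand) had 15167, 14970 and 15385 reads, or 807.6, 801.2 and 814.6 CPM. Its libraries differed 1.02-fold, the narrowest range among the members.

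Beta-IV spectrin, the product of Sptbn4, is the beta chain that ankyrin-G recruits to the initial segment and nodes of Ranvier. Sptbn4 (chromosome 7, 27356383 to 27447686, minus strand) had 841, 764 and 876 reads, or 44.8, 40.9 and 46.4 CPM. Replicate 2 was the lowest and replicate 3 the highest, a 1.14-fold range that was the widest among the members.

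Beta-I spectrin, encoded by Sptb, is the beta chain of red blood cells and is also made in brain and muscle. Sptb (chromosome 12, 76580488 to 76710547, minus strand) had 1085, 1074 and 1126 reads, or 57.8, 57.5 and 59.6 CPM. Replicates 1 and 2 were nearly equal and replicate 3 was higher.

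Among the reads of the 3 beta spectrin members Sptbn1 took 88.8% ± 0.291, Sptb 6.41% ± 0.0655 and Sptbn4 4.84% ± 0.257. Spectrin works as a tetramer with equal numbers of alpha and beta chains. Per kilobase of annotated exon, the 3 beta spectrin members summed to 0.536 ± 0.00477 of the level of Sptan1. With the longest coding sequence as the length the ratio was 0.692 ± 0.00541, and with the longest coding transcript 0.575 ± 0.00461. These are ratios of RNA, not of protein, and cover only these 3 beta spectrin genes.

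TRIM46 bundles microtubules of like orientation in the proximal axon and is needed for axons to form. Trim46 (chromosome 3, 89234177 to 89246309, minus strand) had 4272, 3906 and 4136 reads, or 227.5, 209.1 and 219.0 CPM. Replicate 2 was the lowest and replicate 1 the highest, the only member not highest in replicate 3. Its exons cover 3792 bases, against 9563 (Sptbn4) to 35004 (Ank2) for the other members, so that its level per kilobase was high for its number of reads.

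Ank1 and Sptb encode proteins of the red blood cell membrane, and their reads were therefore set beside markers of red blood cells. None of 10 such markers was detected: the haemoglobin genes Hbb-bs and Hbb-bt, Slc4a1 and Epb42 had no reads in any library, Hba-a1 and Hba-a2 had 3 and 4 reads in all, and Alas2 had 23 reads. The 10 genes summed to 1.02 to 1.65 CPM per library, below the 40.9 ± 0.897 CPM of Ank1 and the 58.3 ± 1.16 of Sptb. Of 7 skeletal muscle markers, examined because muscle expresses Ank1 too, only Acta1 was detected (100 reads in all), and the next highest, Myh2, had 6 reads.

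The genes were next placed in order by level per kilobase, the scale on which different genes can be compared. Length here means every base that lies in an annotated exon of the gene. The order was Sptan1 (103.8 ± 1.32 CPM per kilobase), Trim46 (57.6 ± 2.43), Sptbn1 (46.2 ± 0.384), Ank2 (11.8 ± 0.221), Ank3 (9.27 ± 0.266), Sptb (4.799 ± 0.0956), Sptbn4 (4.60 ± 0.295) and Ank1 (3.03 ± 0.0663). Among the 13836 detected genes with a length, these levels spanned percentile 97.7 for Sptan1, which ranked 313th, down to percentile 32.6 for Ank1.

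Ratios between neighbours in that order were formed within each library from the deposited values, as the difference of log2(CPM per kilobase + 0.5). Sptan1 exceeded Trim46 by 0.84 ± 0.03 log2 units, Trim46 exceeded Sptbn1 by 0.32 ± 0.03 and Sptbn1 exceeded Ank2 by 1.93 ± 0.00756. Ank2 exceeded Ank3 by 0.33 ± 0.02, Ank3 exceeded Sptb by 0.88 ± 0.02 and Sptbn4 exceeded Ank1 by 0.53 ± 0.02. In recovered reads, which are not shrunken between libraries, the SDs of these 6 ratios were 0.01 to 0.08. Each ratio was larger than its spread on both scales. With exon union lengths Sptb and Sptbn4 did not differ by more than their spread. Their ratio was 0.06 ± 0.07 in recovered reads, although the shrunken deposited values gave 0.05 ± 0.02. All 28 ratios between members had the same sign in 3 of 3 libraries. The two-sided exact sign-flip permutation p was 0.25 for each of the 28 (adjusted 0.25), the smallest value available with 3 libraries, and a threshold of 0.05 was therefore out of reach.

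The length assigned to a gene set the order within 4 of the pairs followed. The log2 ratios in this paragraph are from deposited values, whose SDs are shrunken. With exon union lengths the SD in recovered reads was 0.04 for Ank2 over Ank3 and 0.055 for Trim46 over Sptbn1. It was 0.093 for Trim46 over Ank3 and 0.084 for Sptbn4 over Ank1. In Ank2 and Ank3 the annotation holds unusually large coding exons, of 6198 and 7674 bases, which encode the extra domain of the giant ankyrins found in axons. A coding exon of exactly that length is part of 2 of the 16 coding transcripts of Ank2 and of 1 of the 31 of Ank3. Any transcript that uses a shorter form of the exon was counted as not holding it. The longest coding sequence with an exon of that length is 11778 bases in Ank2 and 8612 in Ank3, and among the other transcripts 3657 and 7867. The annotated Ank3 transcript with the largest exon may thus lack much of the coding sequence of its other transcripts. The coding length used for Ank3 may therefore be too short for the giant form, which would raise its level per kilobase. Values per gene do not tell the giant form from the shorter ones. Leaving that exon out of the exon union kept Ank2 (14.3 ± 0.268 CPM per kilobase) above Ank3 (11.9 ± 0.342). With the longest annotated coding transcript as the length, Ank3 lay above Ank2, at a log2 ratio of Ank2 over Ank3 of −0.17 ± 0.02, and Sptbn1 above Trim46 (Trim46 over Sptbn1 −0.40 ± 0.03). With the longest coding sequence these ratios were −0.10 ± 0.02 and −0.25 ± 0.03, and Sptbn4 fell below Ank1 (−0.30 ± 0.02). With the longest coding transcript Sptbn4 and Ank1 did not differ by more than their spread (0.01 ± 0.02). The size of the ratio of Sptb over Sptbn4 also changed with the length, in deposited values. It was 0.14 ± 0.02 with the longest coding transcript, 0.51 ± 0.02 with the longest coding sequence and 0.40 ± 0.02 without length scaling. Without length scaling Ank2 again lay above Ank3, Trim46 lay below Sptbn1 (−1.88 ± 0.03) and Trim46 lay below Ank3 (−0.56 ± 0.05). With the exon union, the longest coding transcript and the coding sequence, Sptan1 was highest, then Sptbn1 and Trim46, then Ank2 and Ank3, and Sptb, Sptbn4 and Ank1 were lowest. Without length scaling Sptan1 and Sptbn1 led, Ank2, Ank3 and Trim46 followed in that order, and the lowest 3 were the same genes.

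**Figure D2:**
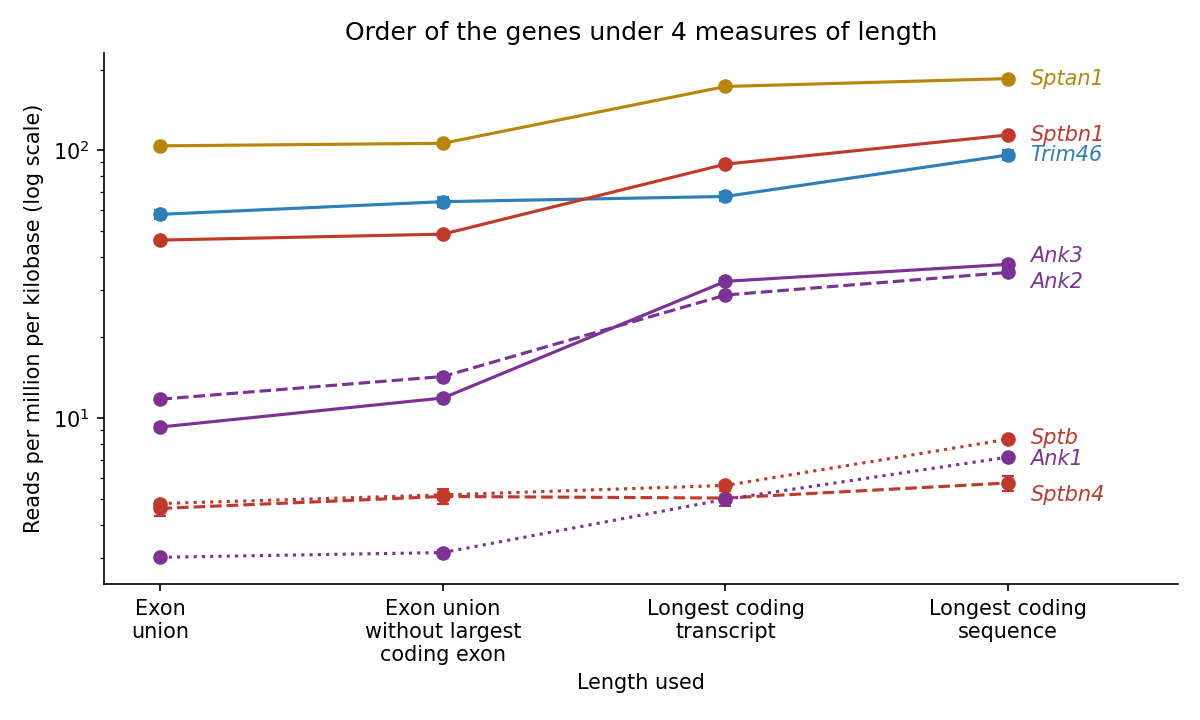
Levels of the 8 genes in CPM per kilobase, on a log axis, under 4 measures of gene length: the exon union, the exon union without the largest coding exon, the longest coding transcript and the longest coding sequence. Points are means and bars SDs over 3 libraries. Ank2 lies above Ank3 with the exon union (11.8 against 9.27) and below it with the longest coding transcript (28.8 against 32.4), and Trim46 and Sptbn1 change places between the same 2 measures, while Sptan1 stays highest.

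The libraries had all been given the same medium, so the remaining comparison was between replicates. A Pearson chi-square statistic compared each gene's reads with those its size factors predict, over the 15131 genes that averaged at least 10 reads. Of the 8 members 3 varied by more than counting error, against 8.62% of all genes tested. Among the 5592 genes with reads in the range of the members the share was 19%. That range is wide and holds more genes at its low end. In bins of abundance, 1778 genes lay around 1234 reads and 46 around 26482. The share is therefore not matched to the abundance of each member. The 3 were Sptan1 (adjusted p = 0.0156, 1.03-fold range), Ank3 (adjusted p = 0.0186, 1.065-fold) and Trim46 (adjusted p = 0.0295, 1.08-fold). Ank2 and Sptbn4 had unadjusted p values of 0.0376 and 0.0340 and adjusted p of 0.206 and 0.194, and Ank1, Sptb and Sptbn1 had adjusted p of 0.507 to 0.806.

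None of these calls was kept whichever library was left out, and leaving out a library also lowers the number of samples. The call for Ank3 was lost without replicate 1 (adjusted p = 0.627) and without replicate 3 (0.143), that for Sptan1 without replicate 3 (0.894), and that for Trim46 without replicate 2 (0.609) and without replicate 1 (0.111). Ank2 gained a call without replicate 1 (0.0485). With total reads in place of size factors only Trim46 kept its call, Ank3 moving to 0.0656 and Sptan1 to 0.112. Mitochondrially encoded genes held 7.13%, 8.25% and 7.61% of reads in replicates 1, 2 and 3, and their part in these differences was not tested.

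Against the spread that genes of like abundance showed between the same libraries, no member stood out. By the chi-square test scaled to the trend of that spread 0 of 8 members varied, against 0.33% of all genes, and 0 of 8 had an unadjusted p under 0.05. The lowest adjusted p was 0.949, for Sptbn4. The coefficient of variation between libraries was 6.41% for Sptbn4, where counting error alone gives 3.48%, and 1.02% for Sptbn1, where it gives 0.812%. The SD of Sptbn4 was larger than that of 83.5% of 2508 genes of like abundance, and the SD of Sptbn1 larger than that of 12.8% of 117 such genes. Of the 8 members 7 were highest in replicate 3, as were 34.4% of all genes tested, and none was highest in replicate 2, where 34.3% of all genes tested were.

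**Figure D3:**
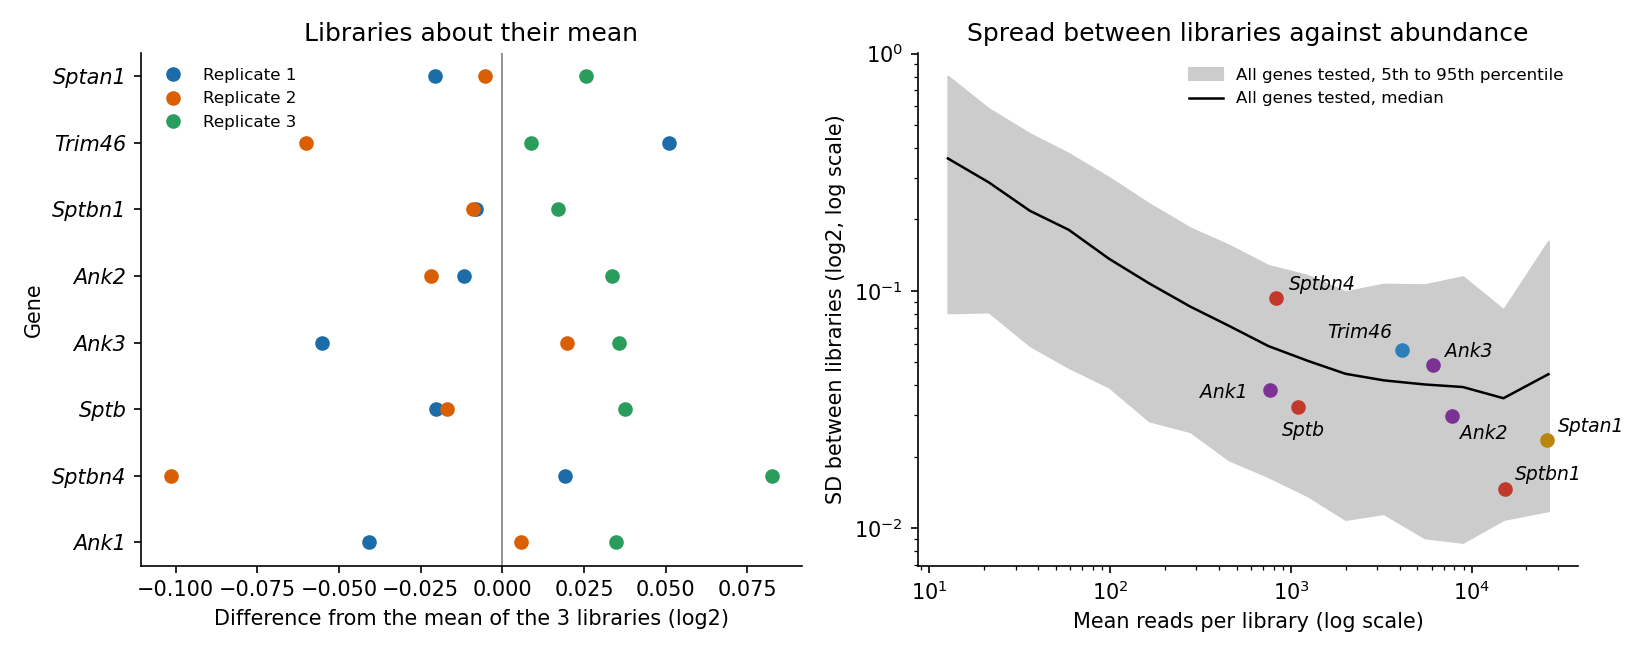
Left, each library's difference from the mean of the 3 libraries for the 8 genes, in log2 units of recovered reads scaled by size factors. Right, the SD of these values against mean reads per library, both on log axes, with the median and the 5th to 95th percentile of all genes tested. Every member lies inside the grey band, Sptbn4 nearest its upper edge for its abundance. Replicate 3 (green) is highest for 7 of 8 genes, and for 34.4% of all genes tested.

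The 8 genes were set beside 62 genes that work with them, in 7 lists. Ratios to these genes were formed in recovered reads, so their SDs are not shrunken as those between members are. Of these 60 were detected, and of the 60 tested 11 exceeded counting error between libraries, beside the 8.62% of all genes and the 19% of genes with reads in the members' range given above, and 0 exceeded the trend. In the order of all 70 genes by level per kilobase, Sptan1 was highest, Trim46 was 6th and Sptbn1 9th, while Ank2 and Ank3 were 34th and 39th and Sptb, Sptbn4 and Ank1 were 53rd, 55th and 58th. The median of the members was 3.45 (log2 of CPM per kilobase + 0.5), against 2.72 for all detected genes.

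Partners of spectrin in the membrane skeleton were mostly abundant, with 15 of 16 detected and a median of 4.34. Tmod2, which caps actin filaments in neurons, led at 48.6 ± 2.16 CPM per kilobase, followed by the adducin gene Add1 (40.2 ± 0.304) and the tropomyosin gene Tpm3 (40.1 ± 1.27). Sptbn5 was lowest, with 8 reads in all.

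Of the channel genes of the initial segment 13 of 14 were detected, with a median of 2.93. The channel regulator Fgf13 led at 44.1 ± 0.992 CPM per kilobase, and the sodium channel gene Scn2a stood at 15.3 ± 0.731, in a row that carries the older name Scn2a1. Scn8a, the sodium channel of mature initial segments, lay at 6.46 ± 0.219, and Scn4b had 24 reads in all. Ank3, which anchors these channels, lay above Scn8a by 0.49 ± 0.0093 log2 units with exon union lengths, and its log2 ratio over Scn2a was −0.69 ± 0.054. With longest coding transcripts the ratio over Scn2a was 0.56 ± 0.055, so that this order is set by the length chosen.

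Adhesion molecules of the segment were all detected, 10 of 10, with a median of 3.55. L1cam (79.7 ± 2.99 CPM per kilobase) and Chl1 (72.4 ± 3.42), which bind ankyrins, and Cntn1 (42.1 ± 1.02) led, and Cntnap1 was lowest at 1.46 ± 0.112. Nfasc, whose large neuronal form is the ankyrin-G partner at the segment, lay at 9.22 ± 0.389 and did not differ from Ank3 by more than the spread (0.01 ± 0.065 log2 units). With longest coding transcripts Ank3 exceeded Nfasc by 1.24 ± 0.067.

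Microtubule genes were the highest of these lists by median (4.94), with 7 of 7 detected. Pafah1b1, which encodes the dynein regulator LIS1, stood at 63.2 ± 2.43 CPM per kilobase, the plus-end protein gene Mapre1 at 40.0 ± 0.908 and Ndel1 at 36.4 ± 0.112, with Mtcl1 lowest at 2.33 ± 0.132. Trim46 had 5 relatives of the same TRIM subfamily in the lists, all detected. Trim67 (34.1 ± 0.794), Trim9 (14.6 ± 0.615) and Mid2 (6.87 ± 0.222) were the highest and Trim36 the lowest (1.58 ± 0.184). Trim46 exceeded Trim67 by 0.75 ± 0.058 log2 units with exon union lengths, and with coding lengths the ratio was −0.43 ± 0.058.

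**Figure D4:**
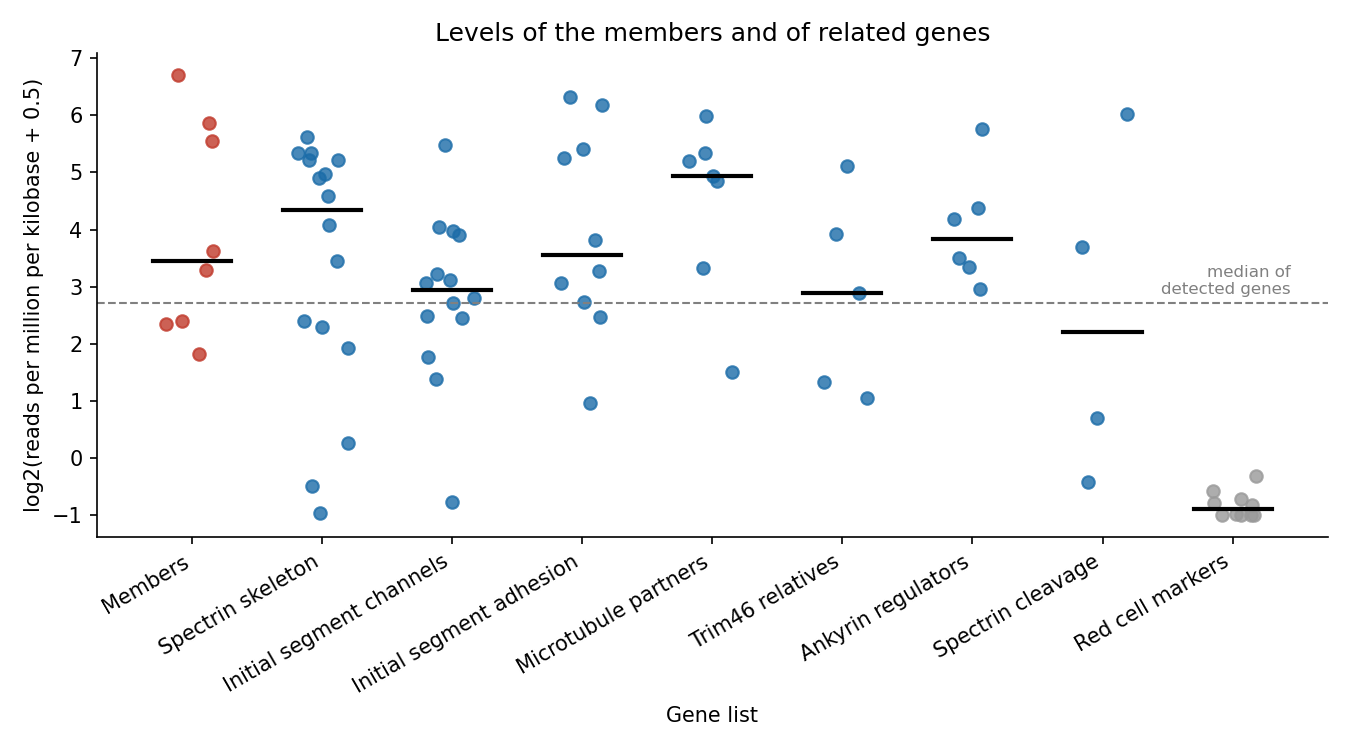
Levels of the 8 members (red), of related genes in 7 lists (blue) and of red blood cell markers (grey), as log2 of CPM per kilobase + 0.5, means over 3 libraries. Each point is a gene, black bars are medians of the lists, and the dashed line is the median of detected genes (2.72). Members span the range from Ank1 to Sptan1, and the red blood cell markers lie at the floor.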

How the data were processed

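RNA from 3 libraries of 1 group was analysed. In the files the authors deposited, each gene row holds a single log2 value for a library. FastQC, HISAT2, featureCounts and DESeq2 are named in the submitters' processing notes, with GRCm38 as the build and without versions or roles. The authors' values had the form of DESeq2's regularized log, which shrinks differences between libraries. Reads were recovered by inverting a ridge-penalised negative binomial fit with 6 fitted parameters: of 77088 values 99.956% lay at most 0.1 from whole (20% by chance), at least 97.4% in abundance ranges not yet used for the fit, and refitting gave the deposited values to within 0.001 in 100% of genes. The largest distance among the members was 0.0243 reads.

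Detection and ratios between members used the deposited values. Levels in CPM, shares within families, the summed beta spectrins over Sptan1, ratios to related genes and variation used recovered reads. The members' share of expression is given from both. Lengths came from GENCODE M21 (45126 names matched by symbol, 609 by an older one). Ratios used a pseudocount of 0.5 and an exact sign-flip permutation test. Variation used a Pearson chi-square with 2 degrees of freedom and Benjamini-Hochberg adjustment over all genes tested, with median-of-ratios size factors; the trend of the spread was matched to the median in bins of abundance. The methods were tested on simulated data. Python 3.11.15, numpy 2.4.6 and scipy 1.17.1 were used. All 3 pairs of libraries differed beyond sampling noise (mean chi-square per gene 2.24 to 3.83 where 1 is expected), so the libraries were counted separately. The members, lists and rules were chosen with earlier results of these data known. Named genes were all members, the 3 highest and the lowest of each related list by level per kilobase, Nfasc, Scn2a and Scn8a, and of each marker list the 2 highest and those without reads, with a few genes that the rule names not reported here; Hba-a1, Hba-a2 and overlapping genes were named after their values were seen. Alternatives covered the values used, pseudocount, length, filter, scaling and each library left out.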

Additional observations from a re-analysis of the deposited data

How the results depend on the processing

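Of 193 alternative values 170 kept their direction, call or size. For the 11 pair ratios followed, 103 of 110 alternative values kept their direction, and the 7 that reversed did so with another length: Trim46 over Sptbn1 (−1.88 without length scaling, −0.40 with the longest coding transcript, −0.25 with coding length), Trim46 over Ank3 (−0.56 without length scaling), Ank2 over Ank3 (−0.17 and −0.10 with the longest coding transcript and coding length) and Sptbn4 over Ank1 (−0.30 with coding length). Among those that kept their direction, Sptbn4 over Ank1 fell within its spread with the longest coding transcript (0.01 ± 0.02 in deposited values, from 0.53). These follow from the lengths themselves. Ratios whose sign was shared by 3 of 3 libraries cannot turn when 1 is left out. Lengths from RefSeq proteins were planned but not run; coding lengths from GENCODE and exon unions without the largest coding exon were added after seeing the data. Members varying beyond counting error numbered 3, 1 with total reads, and 1 to 2 with a library left out. Over all genes that count went from 1304 to 334 to 1187 with a library left out (334 without replicate 2, 835 without replicate 3), and the count beyond the trend from 50 to 7 to 29 (7 without replicate 1, 19 without replicate 2, 29 without replicate 3). Fewer samples lower such counts; the cause of the rest was not tested. The members' share of expression went from 0.329% to 0.0815% per kilobase. That scale divides by the exon union, which lay at percentile 89.3 to 100 of protein-coding genes with reads for 7 members. For Trim46 it lay at percentile 42.5, and the part of length in this change was not tested. Genes without reads are bounded only by depth. No paired analysis was possible because there is 1 group.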

Other observations

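Genes that modify ankyrins and spectrins were expressed as well. Of 6 genes that act on ankyrins or their binding, all were detected, with a median of 3.84 (log2 of CPM per kilobase + 0.5). Casein kinase 2, which phosphorylates the ankyrin-binding motif of sodium channels, had its regulatory subunit gene Csnk2b at 53.6 ± 1.22 CPM per kilobase and the catalytic subunit genes Csnk2a1 at 20.2 ± 0.391 and Csnk2a2, the lowest of the list, at 7.32 ± 0.182. Zdhhc5, a palmitoyl transferase that acts on ankyrin-G, lay at 17.6 ± 0.168.

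Calpains are proteases that cleave alpha-II spectrin in injured neurons. All 4 genes of this system passed 1 CPM in every library, with a median of 2.20, but their levels were uneven. The shared small subunit gene Capns1 stood at 64.8 ± 0.542 CPM per kilobase, and of the catalytic subunit genes Capn2 lay at 12.5 ± 0.399 and Capn1 at 1.12 ± 0.178. Cast, which encodes the calpain inhibitor calpastatin, was lowest with 49, 44 and 67 reads, or 0.247 ± 0.0548 CPM per kilobase.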
